A study of Canis lupus familiaris with 12 samples.

Results

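Interleukins and interleukin receptors were examined in lymph nodes of dogs with sinonasal cancer. They were taken as every endogenous probe of the panel named IL followed by a digit, without 7 receptor genes that belong to the common gamma chain group (IL2RG, IL2RA, IL2RB, IL4R, IL7R, IL15RA and IL21R). This gave 55 of 780 endogenous genes, of which 32 encode ligands or a secreted antagonist and 23 encode receptor chains or a soluble receptor. Dogs were randomized, and nodes were sampled after treatment. The irradiated nodes came from 3 dogs that received stereotactic body radiation (SBRT, 3 fractions of 10 Gy) to the sinonasal tumor together with elective nodal irradiation (ENI) of the submandibular and retropharyngeal nodes on both sides. The non-irradiated nodes came from 3 dogs that received the same SBRT to the tumor alone. Thus all dogs were irradiated at the tumor, and no node of an untreated dog was compared. Each dog contributed 2 samples, which the labels do not tell apart, so that each group held 6 samples. Ages in the ENI dogs ran over 7 to 14 years (median 11), and these dogs included 2 neutered males and 1 spayed female, and had 1 carcinoma, 1 sarcoma and 1 malignant tumor of unstated type. Ages in the dogs treated at the tumor alone ran over 3 to 9 years (median 6), and these dogs included 1 neutered male and 2 spayed females, and had 2 carcinomas and 1 malignant tumor of unstated type. Age, sex, tumor type and nodal irradiation cannot be told apart with so few dogs. The labels give lymph node as the tissue, whereas the extraction protocol speaks of frozen tumor.

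Interleukins are small secreted proteins through which leukocytes, stromal cells and epithelia signal to one another. Most act through receptors built of several chains, one that lends specificity and one shared within a family, such as gp130 for IL-6 and IL-11 or the IL-12 receptor beta 1 chain for IL-12 and IL-23. In a lymph node, dendritic cells and macrophages supply IL-12, IL-15, IL-18 and IL-27 to lymphocytes, helper T cells supply IL-2, IL-4, IL-17A and IL-21, and stromal cells supply IL-7.

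Expression was measured with the NanoString Canine IO 360 panel, which counts barcoded probes hybridized to RNA without amplification. The data used were a group value in normalized counts and its SD for each of 800 probes, 20 of them housekeeping genes, and values of single samples were not analysed here. The group values over all probes summed to 896768 normalized counts in irradiated nodes and 836546 in non-irradiated nodes. Genes found in lymph node were measured in both groups, and they did not move alike. The T cell gene CD3E stood at 2627 normalized counts in irradiated nodes and 4393 in non-irradiated nodes, but CD4 at 898 and 866. CXCL13, a chemokine of B cell follicles, stood at 17547 in irradiated nodes and 9724 in non-irradiated nodes, but the stromal chemokine CXCL12 at 1882 and 4767. Whether these values mark node rather than tumor tissue was not tested. Summed T cell markers were 11615 normalized counts in irradiated nodes and 15702 in non-irradiated nodes, with 8 of 10 markers lower. Summed B cell markers were 10184 in irradiated nodes and 9157 in non-irradiated nodes (6 of 7 higher), and summed macrophage markers were 3136 in irradiated nodes and 5113 in non-irradiated nodes (4 of 6 lower). The macrophage sum leans on MARCO, which varied widely, with 1109 (SD 2197) in irradiated nodes and 2272 (SD 1296) in non-irradiated nodes. CD163 and MRC1 were the 2 macrophage markers with a higher group value. Group values were higher in irradiated nodes for 4 of 5 epithelial, 4 of 5 neutrophil, 2 of 4 mast cell, 2 of 4 fibroblast, 2 of 5 node stroma, 0 of 5 dendritic and 0 of 3 endothelial markers. Among these, the epithelial marker MUC1 (10.3 in irradiated nodes, 8.43 in non-irradiated nodes) and the mast cell marker HDC (15.7 and 17.3) lay under 20 normalized counts. The part of these cell mixtures in the interleukin values was not tested. In such bulk RNA, fewer cells of a type and less RNA per cell cannot be told apart.

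No interleukin or receptor passed the test between irradiated and non-irradiated nodes. The spread between dogs was not measured, because the SDs run over the 6 samples of a group. The log2 ratio was therefore tested in limma with a bound in its place, the greatest variance that 3 dog means could have had given the SD over samples, and p-values were adjusted over all 780 endogenous genes by the Benjamini-Hochberg method (threshold 0.05). The bound is reached when the 2 samples of each dog are alike. The adjusted p of all 55 genes was 0.999, and the background was equally empty, with 0% of the 780 genes past the threshold and a smallest adjusted p of 0.203. At an unadjusted p under 0.05, 0 of the 55 genes were called, beside 4.49% of all genes. The median standard error (SE) of a member's log2 ratio was 0.40 under this bound and 0.25 with the 6 samples taken as independent. The width of the intervals thus depends on how alike the samples of a dog were, which was not measured. In limma each variance was also moderated, that is drawn toward that of all genes. Genes with a wide spread therefore have an SE below the bound (0.50 for IL1R2 and 0.42 for IL6, against 0.71 and 0.50 unmoderated). Genes with a narrow spread have one above it (0.35 for IL10RA, against 0.17 unmoderated).

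Taking the 6 samples of a group as independent, which understates the error if the samples of a dog are alike, gave 0 of the 55 genes past the adjusted threshold in limma, beside 3.59% of all genes. At an unadjusted p under 0.05 this fit called 5 of the 55 (9.09%), namely IL15, IL6 and IL27 (higher in irradiated nodes) and IL10RA and IL17RB (lower), beside 21.9% of all genes. In that fit the 95% intervals of these 5 genes left out 0: they ran over 0.15 to 0.96 for IL15, 0.16 to 1.40 for IL6, 0.07 to 0.97 for IL27, -0.72 to -0.10 for IL10RA and -0.75 to -0.08 for IL17RB. The group values with 1 SD on either side did not meet for 2 of the 55 genes, IL15 and IL10RA, beside 8.59% of all genes. In these counts the share among interleukins and receptors was below that of the panel, which is a description and was not tested.

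Ligands leaned to higher group values in irradiated nodes and receptors were divided nearly evenly. Of the 32 ligands, 22 had a higher group value in irradiated nodes and 10 a lower one, with a median log2 ratio of 0.05. Of the 27 ligands at 20 normalized counts or more in a group, 18 were higher and 9 lower (median 0.06). Both medians are small beside the median SE of a ligand's log2 ratio under the bound, 0.40, so many of these signs rest on nearly equal values. Of the 23 receptors, 11 were higher and 12 lower (median -0.01), a split that turned to 12 higher (median 0.02) when the ratios were centred on the housekeeping median and 13 higher (median 0.03) when centred on the endogenous median. The mean in place of the median was 0.03, and of the 19 receptors at 20 normalized counts or more in a group 8 were higher and 11 lower (median -0.04). Over the 780 endogenous genes 352 ratios were above 1 and 428 below, and the median was -0.05. These are descriptions of group values, and the difference between ligands and receptors was not tested. Few ratios were large: 5 of 55 members (9.09%) lay more than 0.5 from 0 on the log2 scale, against 165 of 780 genes (21.2%).

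**Figure D1:**
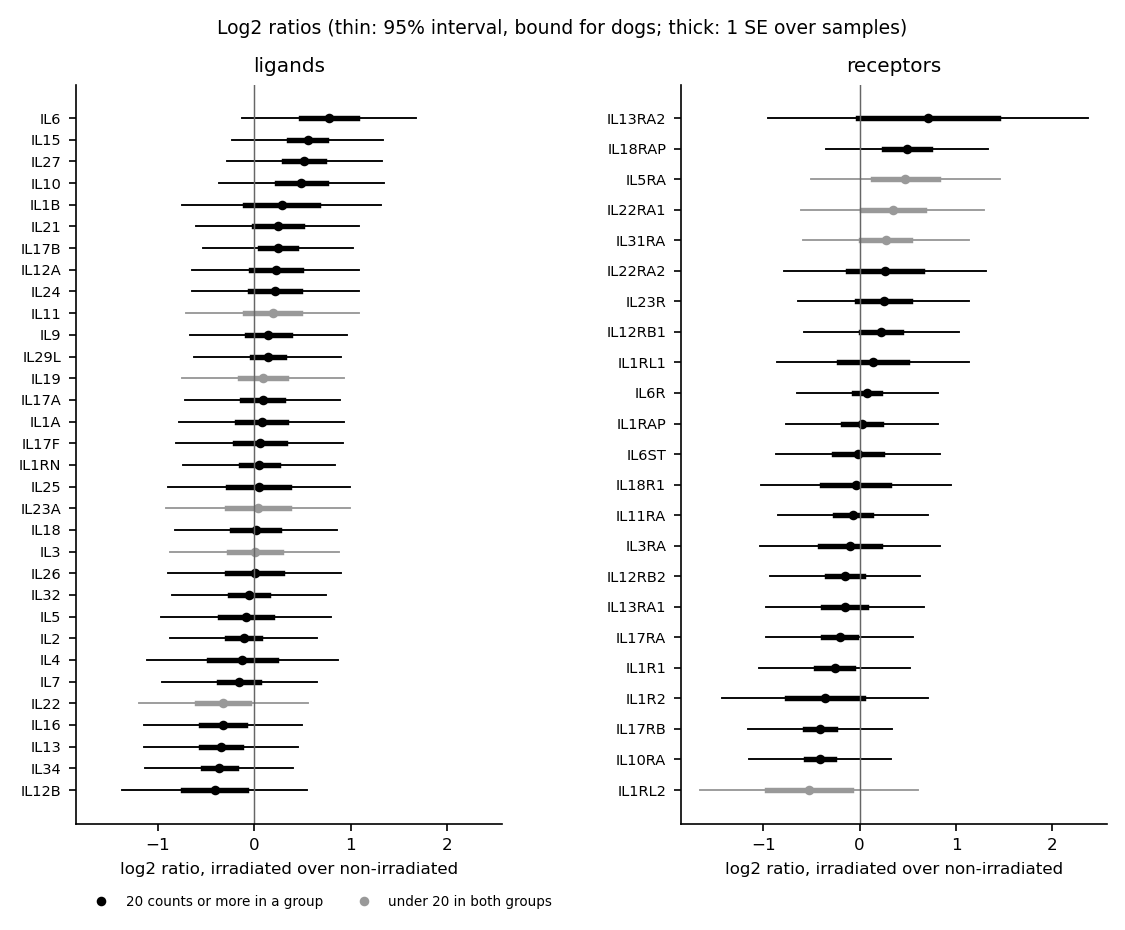
Log2 ratios (irradiated over non-irradiated) of 32 ligands (left) and 23 receptors (right), ordered by size, with 95% intervals under the moderated bound for dogs as thin lines, 1 SE over samples as thick lines, and genes under 20 normalized counts in both groups in grey. Every thin line crosses 0, and the point estimates run from -0.52 for IL1RL2 to 0.78 for IL6.

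The plot of log2 ratios shows this directly: most ligand points lie right of 0, the receptor points spread to both sides, and no interval with the bound for dogs leaves 0 out. The intervals given below are those with this bound after moderation.

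Among ligands, those of the IL-1 family differed between the groups by less than the SE of their log2 ratios. This family initiates inflammation, and IL1RN is its secreted receptor antagonist. IL18, which elicits interferon gamma from T and NK cells, had 5427 normalized counts (SD 1456) in irradiated nodes and 5366 (SD 2080) in non-irradiated nodes (log2 ratio 0.02). It alone made up 41.4% of the summed values of the 55 genes in irradiated nodes and 40.9% in non-irradiated nodes. IL1A, an alarmin released by injured cells, had 116 (SD 33.0) in irradiated nodes against 110 (SD 45.4) in non-irradiated nodes (log2 ratio 0.08). IL1B, the inflammasome product, had 26.2 (SD 10.3) in irradiated nodes and 21.5 (SD 18.5) in non-irradiated nodes (log2 ratio 0.28), close to the lower end of the panel. IL1RN had 161 (SD 19.3) in irradiated nodes and 155 (SD 49.3) in non-irradiated nodes (log2 ratio 0.05). All 4 were higher in group value, by a median log2 ratio of 0.06, which is well within the SE of each.

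IL6 had the highest log2 ratio among the ligands. It is the classical inducer of the acute phase and of plasma cell differentiation. IL6 had 73.5 normalized counts (SD 21.6) in irradiated nodes and 42.9 (SD 23.0) in non-irradiated nodes. The log2 ratio was 0.78 with a 95% interval of -0.13 to 1.68 (limma, unadjusted p = 0.0867, adjusted p = 0.999), and the bands of 1 SD met. With samples taken as independent the adjusted p in limma was 0.131. IL11, which also signals through gp130, stood near the lower end of the panel at 12.0 in irradiated nodes and 10.5 in non-irradiated nodes (log2 ratio 0.19).

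In the IL-10 family, 5 of 6 ligands were higher in group value in irradiated nodes. IL10, which restrains antigen-presenting cells, had 191 normalized counts (SD 72.4) in irradiated nodes and 136 (SD 44.9) in non-irradiated nodes, a log2 ratio of 0.49 (95% interval -0.37 to 1.35). IL24, which acts on epithelia, had 38.6 (SD 11.1) in irradiated nodes and 33.3 (SD 14.4) in non-irradiated nodes (log2 ratio 0.22). IL26, a T cell product, had 29.9 in irradiated nodes and 29.8 in non-irradiated nodes (log2 ratio 0.00). IL29L, named after the type III interferon IL-29, had 45.4 (SD 8.89) in irradiated nodes and 41.2 (SD 6.76) in non-irradiated nodes (log2 ratio 0.14). IL19, a monocyte product, lay under 20 at 16.3 in irradiated nodes and 15.4 in non-irradiated nodes (log2 ratio 0.09). IL22, which protects epithelial barriers, also lay under 20 at 13.5 in irradiated nodes and 16.8 in non-irradiated nodes (log2 ratio -0.32).

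The subunits of the IL-12 family lay on both sides of a ratio of 1. IL-12 joins the products of IL12A and IL12B, IL-23 joins those of IL23A and IL12B, and IL-27 joins that of IL27 to EBI3. IL27 had 33.8 normalized counts (SD 4.73) in irradiated nodes and 23.6 (SD 8.25) in non-irradiated nodes, a log2 ratio of 0.52 (95% interval -0.28 to 1.32), with an adjusted p in limma of 0.161 when samples were taken as independent. Both values of IL27 lie near the lower end of the panel, and a pseudocount of 20 brought its log2 ratio to 0.30. EBI3, its partner, had 31.5 in irradiated nodes and 42.0 in non-irradiated nodes. IL12A had 109 (SD 9.28) in irradiated nodes and 93.0 (SD 51.3) in non-irradiated nodes (log2 ratio 0.22). IL12B had the lowest log2 ratio of the ligands, -0.41 (95% interval -1.37 to 0.55), with 210 normalized counts (SD 152) in irradiated nodes and 279 (SD 71.0) in non-irradiated nodes. The 2 chains of IL-12 thus pointed to opposite sides, and neither departed from 0 beyond its error. IL23A was under 20 at 16.0 in irradiated nodes and 15.6 in non-irradiated nodes (log2 ratio 0.04).

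All 4 IL-17 family ligands had ratios just above 1. IL17A, the neutrophil-recruiting product of Th17 cells, had 58.8 normalized counts (SD 14.8) in irradiated nodes and 55.5 (SD 15.8) in non-irradiated nodes (log2 ratio 0.09). Its close relative IL17F had 41.6 (SD 14.0) in irradiated nodes and 40.0 (SD 15.5) in non-irradiated nodes (log2 ratio 0.06). IL17B, a ligand of IL17RB, had 21.2 (SD 5.30) in irradiated nodes and 17.9 (SD 3.29) in non-irradiated nodes (log2 ratio 0.24). IL25, an epithelial inducer of type 2 responses, had 22.3 (SD 5.85) in irradiated nodes and 21.6 (SD 14.5) in non-irradiated nodes (log2 ratio 0.05). Both IL17B and IL25 lay near the lower end of the panel.

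Ligands of common gamma chain receptors divided evenly, 3 higher and 3 lower. IL15, which maintains CD8 T cells and NK cells, stood out with 375 normalized counts (SD 30.3) in irradiated nodes and 255 (SD 81.1) in non-irradiated nodes. One SD below the irradiated value was 344 and one SD above the non-irradiated value was 337, so the bands did not meet. Its log2 ratio was 0.55 (95% interval -0.23 to 1.33, limma adjusted p = 0.999), and with samples taken as independent the adjusted p in limma was 0.110. The T cell growth factor IL2 had 315 (SD 22.4) in irradiated nodes and 340 (SD 91.1) in non-irradiated nodes (log2 ratio -0.11). IL7, the stromal survival factor of naive T cells, had 367 (SD 57.9) in irradiated nodes and 409 (SD 141) in non-irradiated nodes (log2 ratio -0.16). IL21, the follicular helper product that drives germinal centres, had 77.7 (SD 15.7) in irradiated nodes and 65.6 (SD 28.7) in non-irradiated nodes (log2 ratio 0.24). Near the lower end of the panel, IL4, the Th2 cytokine, had 25.7 in irradiated nodes and 28.1 in non-irradiated nodes (log2 ratio -0.12). IL9, a mast cell growth factor, had 25.9 in irradiated nodes and 23.4 in non-irradiated nodes (log2 ratio 0.15).

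Of the 6 remaining ligands, the myeloid growth factor IL3 was under 20 at 12.8 in irradiated nodes and 12.7 in non-irradiated nodes (log2 ratio 0.00), and the other 5 were lower in group value in irradiated nodes. IL13, an effector of type 2 immunity, had 25.2 normalized counts (SD 3.88) in irradiated nodes and 32.0 (SD 11.0) in non-irradiated nodes, a log2 ratio of -0.35 (95% interval -1.15 to 0.46). IL5, the eosinophil factor, had 27.4 (SD 4.09) in irradiated nodes and 29.1 (SD 16.5) in non-irradiated nodes (log2 ratio -0.09). IL34, a ligand of the CSF1 receptor that sustains macrophages, had 89.5 (SD 11.3) in irradiated nodes and 115 (SD 27.2) in non-irradiated nodes. Its log2 ratio was -0.37 (95% interval -1.13 to 0.40), with an adjusted p in limma of 0.228 over samples. IL16, a CD4 ligand that attracts T cells, had 24.7 (SD 7.01) in irradiated nodes and 30.9 (SD 9.42) in non-irradiated nodes (log2 ratio -0.32), and IL32, a proinflammatory leukocyte product, had 69.5 (SD 19.5) in irradiated nodes and 72.2 (SD 15.5) in non-irradiated nodes (log2 ratio -0.06).

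**Figure D2:**
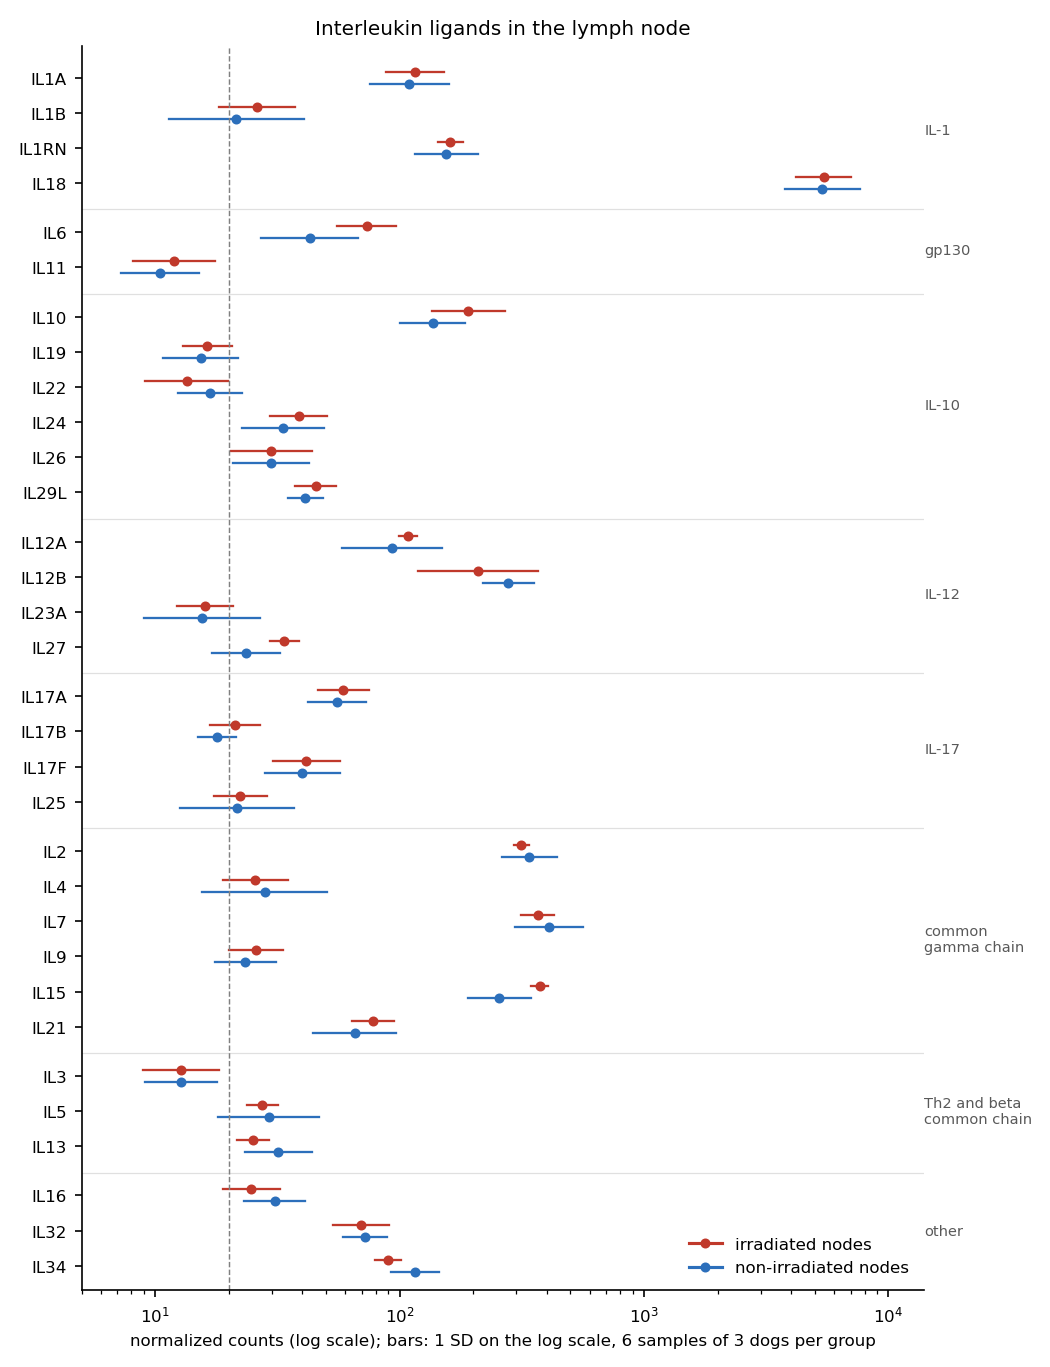
Group values of the 32 ligands in normalized counts on a log scale, with irradiated nodes drawn above non-irradiated nodes for each gene and bars of 1 SD on the log scale. The dashed line is 20 normalized counts, and the bars of IL15 barely separate (375 in irradiated nodes, 255 in non-irradiated nodes) whereas those of the other ligands overlap.

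The plot of ligand levels shows how many of these genes lie close to the dashed line. Under 20 in both groups were the ligands IL11, IL19, IL22, IL23A and IL3 and the receptors IL1RL2, IL31RA, IL22RA1 and IL5RA, 9 of the 55.

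Among receptors of the IL-1 family, 3 of 7 were higher and 4 lower, or 4 and 3 with centring on the endogenous median, which turned IL18R1 to 0.01. IL1R1, the signalling receptor, had 593 normalized counts (SD 130) in irradiated nodes and 710 (SD 174) in non-irradiated nodes (log2 ratio -0.26). IL1R2, the decoy that traps IL-1 without signalling, had 204 (SD 128) in irradiated nodes and 261 (SD 188) in non-irradiated nodes (log2 ratio -0.36). IL1RAP, the shared accessory chain, was nearly equal at 161 (SD 32.9) in irradiated nodes and 158 (SD 44.1) in non-irradiated nodes (log2 ratio 0.02). IL-18 needs both a binding and a signalling chain. IL18R1, the binding chain, had 114 (SD 12.6) in irradiated nodes and 117 (SD 105) in non-irradiated nodes (log2 ratio -0.04). IL18RAP, the signalling chain, had 60.3 (SD 5.42) in irradiated nodes and 42.9 (SD 20.2) in non-irradiated nodes, a log2 ratio of 0.49 (95% interval -0.34 to 1.33) with an adjusted p in limma of 0.241 over samples. IL1RL1, the IL-33 receptor, had 47.2 (SD 10.7) in irradiated nodes and 42.8 (SD 36.8) in non-irradiated nodes (log2 ratio 0.14). IL1RL2, the IL-36 receptor, had the lowest log2 ratio of the receptors, -0.52 (95% interval -1.65 to 0.61), from values of 10.1 (SD 2.85) in irradiated nodes and 14.4 (SD 19.1) in non-irradiated nodes that are both under 20.

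In the gp130 group, the shared chain IL6ST had similar group values, with 1297 normalized counts (SD 64.0) in irradiated nodes and 1309 (SD 671) in non-irradiated nodes (log2 ratio -0.01). IL6R, the specific chain for IL-6, had 99.4 (SD 12.4) in irradiated nodes and 94.2 (SD 8.31) in non-irradiated nodes (log2 ratio 0.08). The log2 ratios of both chains were thus near 0 beside 0.78 for IL6, and the sign of IL6ST turned with centring on the housekeeping (0.02) or endogenous (0.03) median. IL11RA, the specific chain for IL-11, had 40.6 (SD 6.96) in irradiated nodes and 42.7 (SD 11.1) in non-irradiated nodes (log2 ratio -0.07). IL31RA, a gp130-like receptor of the itch cytokine IL-31, had 18.7 (SD 1.82) in irradiated nodes and 15.5 (SD 8.11) in non-irradiated nodes (log2 ratio 0.27).

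IL10RA, the ligand-binding chain of the IL-10 receptor and one of the genes the study names, had 343 normalized counts (SD 29.4) in irradiated nodes and 456 (SD 77.1) in non-irradiated nodes. One SD above the irradiated value was 372 and one SD below the non-irradiated value was 379, so the bands did not meet. Its log2 ratio was -0.41 (95% interval -1.15 to 0.33, limma adjusted p = 0.999), with an adjusted p in limma of 0.116 over samples. Ligand and receptor pointed to opposite sides here, as IL10 itself was higher in group value in irradiated nodes. IL22RA2, a soluble antagonist of IL-22, had 34.2 (SD 23.8) in irradiated nodes and 28.5 (SD 16.9) in non-irradiated nodes (log2 ratio 0.27), and IL22RA1, the epithelial chain of the IL-22 receptor, was under 20 at 13.2 in irradiated nodes and 10.4 in non-irradiated nodes (log2 ratio 0.35).

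Both IL-17 receptor chains were lower in irradiated nodes. IL17RB, the IL-25 receptor chain, also named by the study, had 108 normalized counts (SD 21.7) in irradiated nodes and 144 (SD 14.3) in non-irradiated nodes. Its log2 ratio was -0.41 (95% interval -1.16 to 0.34, limma adjusted p = 0.999), with an adjusted p in limma of 0.136 over samples. IL17RA, the chain common to the family, had 633 (SD 159) in irradiated nodes and 730 (SD 63.6) in non-irradiated nodes (log2 ratio -0.21). The study reported IL10RA and IL17RB as decreased with ENI, among genes it ties to immunosuppression, and found no significant difference for them. Since the study picked both from these same samples, their direction is not independent evidence.

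The IL-12 receptor chains were mixed. IL12RB1, shared by IL-12 and IL-23, had 62.2 normalized counts (SD 10.2) in irradiated nodes and 53.2 (SD 18.0) in non-irradiated nodes (log2 ratio 0.22), while IL12RB2, specific to IL-12 and a mark of Th1 cells, had 30.8 (SD 8.10) in irradiated nodes and 34.2 (SD 5.62) in non-irradiated nodes (log2 ratio -0.15). IL23R, a mark of Th17 cells, had 299 (SD 113) in irradiated nodes and 251 (SD 103) in non-irradiated nodes (log2 ratio 0.25).

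Of the type 2 and beta common chain receptors, IL13RA2 had the highest log2 ratio of any receptor and the least certain one. IL13RA2 is a decoy for IL-13 that is often expressed by tumors and fibroblasts. It had 529 normalized counts (SD 1570) in irradiated nodes and 324 (SD 568) in non-irradiated nodes, a log2 ratio of 0.71 with a 95% interval of -0.95 to 2.37. If 6 samples lie behind each SD, the highest sample held at least 2867 normalized counts in irradiated nodes and 1036 in non-irradiated nodes, far above the group values. The signalling chain IL13RA1 had 274 (SD 61.6) in irradiated nodes and 305 (SD 107) in non-irradiated nodes (log2 ratio -0.15). IL3RA, the alpha chain for IL-3, had 28.8 (SD 13.0) in irradiated nodes and 30.9 (SD 14.7) in non-irradiated nodes (log2 ratio -0.10). IL5RA, the alpha chain for IL-5 on eosinophils, was under 20 at 19.2 (SD 9.62) in irradiated nodes and 13.8 (SD 7.88) in non-irradiated nodes, a log2 ratio of 0.48 (95% interval -0.50 to 1.45).

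**Figure D3:**
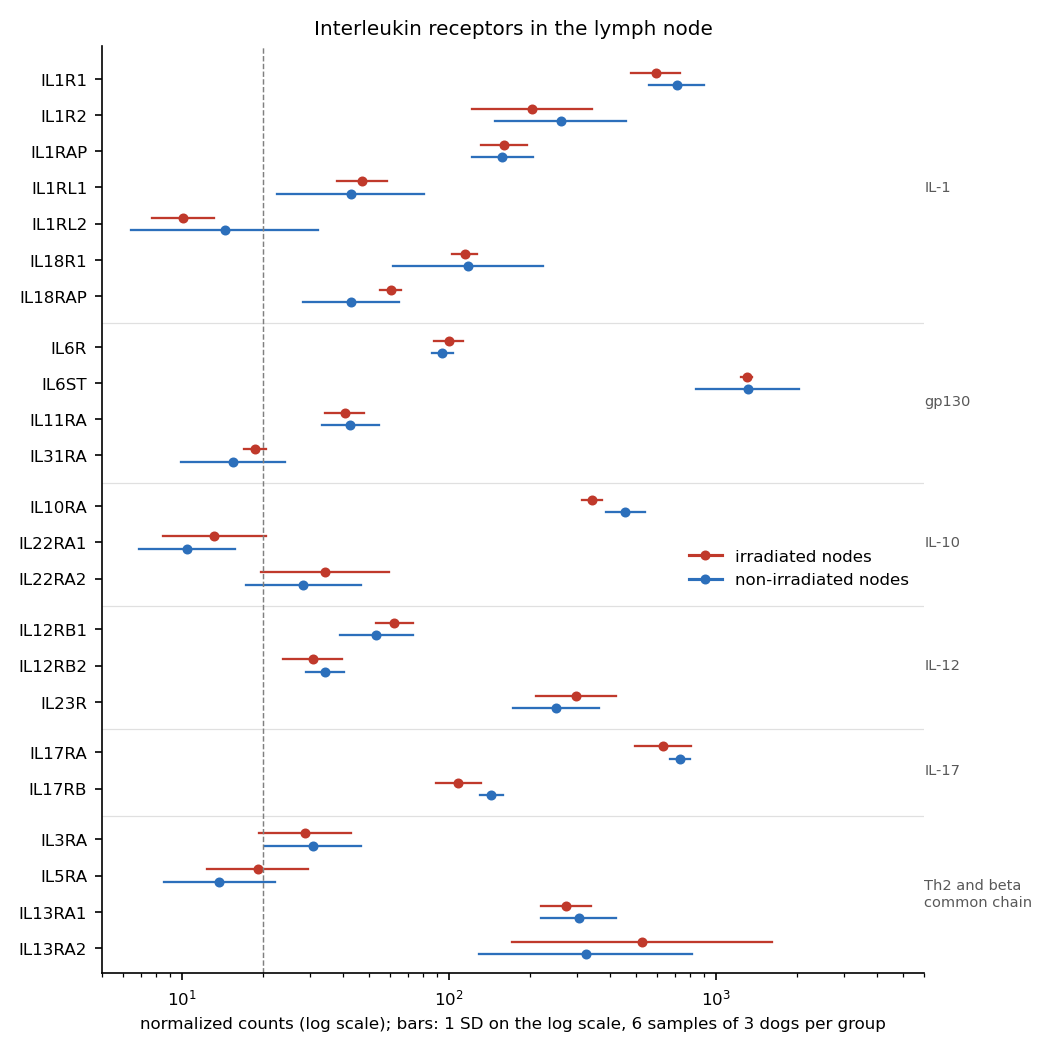
Group values of the 23 receptors in normalized counts on a log scale, irradiated nodes above non-irradiated nodes for each gene, with bars of 1 SD on the log scale and a dashed line at 20 normalized counts. The bars of IL10RA lie apart (343 in irradiated nodes, 456 in non-irradiated nodes), and IL6ST has a short bar in irradiated nodes (SD 64.0) and a long one in non-irradiated nodes (SD 671).

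The plot of receptor levels draws attention to the lengths of the bars more than to their centres. The SD, taken as a percent of the group value, was smaller in irradiated nodes for 39 of 55 interleukins and receptors (70.9%), beside 510 of all 780 genes (65.4%), so most of this tilt was shared by the whole panel. The median relative SD of the 55 genes was 25.2% in irradiated nodes and 38.7% in non-irradiated nodes, and over all genes 22.9% in irradiated nodes and 32.2% in non-irradiated nodes. By family, the relative SD was smaller in irradiated nodes in 11 of 11 IL-1 members and 6 of 6 ligands of the common gamma chain receptors. The share was 4 of 6 in the gp130 group, 5 of 7 in the IL-12 family and 5 of 7 in the type 2 and beta common chain group. It was 2 of 3 among the other ligands, 3 of 6 in the IL-17 family and 3 of 9 in the IL-10 family.

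In 10 of the 55 genes (18.2%, beside 15.6% of all genes) the relative SD was more than 3 times larger in non-irradiated nodes, while the reverse held for 0 of the 55, beside 27 of all 780 genes (3.46%). IL6ST was the most extreme, with 4.93% in irradiated nodes and 51.2% in non-irradiated nodes. IL18R1 had 11.1% in irradiated nodes and 89.2% in non-irradiated nodes, and its partner chain IL18RAP 8.99% in irradiated nodes and 47.1% in non-irradiated nodes. IL12A had 8.55% in irradiated nodes and 55.2% in non-irradiated nodes, and IL15 had 8.08% in irradiated nodes and 31.7% in non-irradiated nodes. The other 5 were IL31RA, IL1RL2, IL1RL1, IL5 and IL2. Some members went the other way by a smaller factor: IL17RA had 25.2% in irradiated nodes and 8.71% in non-irradiated nodes, IL17RB 20.1% in irradiated nodes and 9.96% in non-irradiated nodes, and IL12B 72.5% in irradiated nodes and 25.4% in non-irradiated nodes. No test of spread was made, because 3 dogs with 2 samples each give too few independent values.

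**Figure D4:**
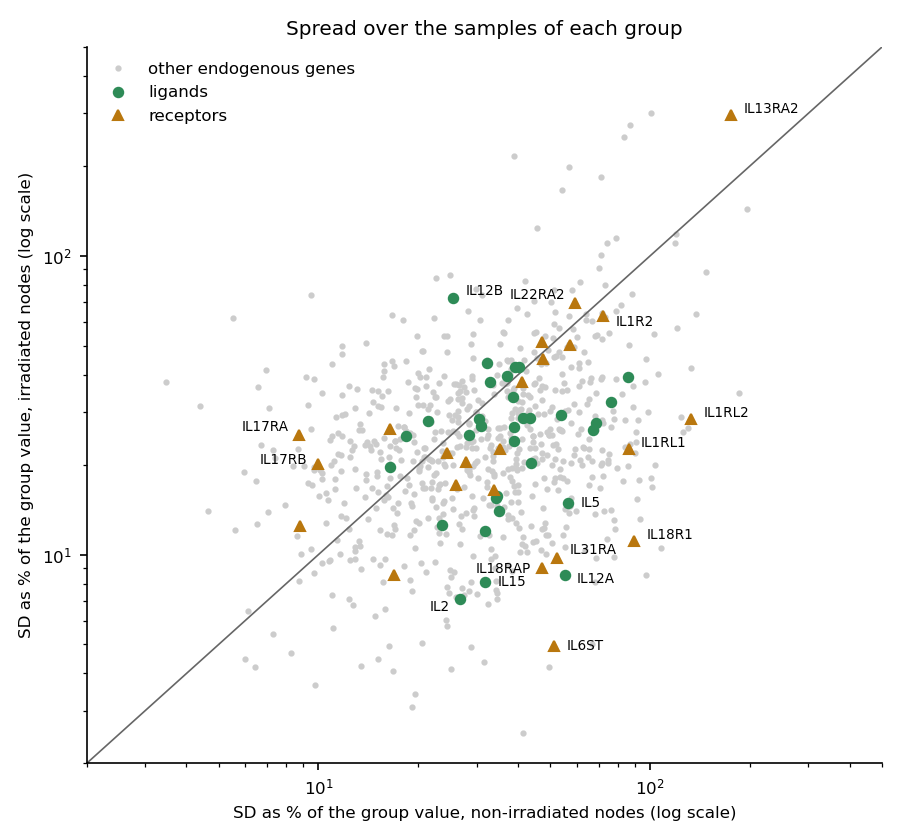
SD as a percent of the group value in irradiated nodes (vertical axis) against non-irradiated nodes (horizontal axis), both on log scales, for ligands, receptors and the other endogenous genes. Points below the diagonal varied less in irradiated nodes, as did 39 of 55 interleukins and receptors and 510 of 780 genes, with IL6ST (4.93% in irradiated nodes, 51.2% in non-irradiated nodes) among the farthest below.

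Several of these genes lie next to each other in the dog annotation. Allowing up to 5 protein-coding genes between neighbours, 24 of the 55 formed 9 clusters. The largest held 6 IL-1 family receptors (IL18RAP, IL18R1, IL1RL1, IL1RL2, IL1R1 and IL1R2), of which 2 were higher and 4 lower in irradiated nodes, with IL18R1 turning higher after centring on the endogenous median. All 6 had a smaller relative SD in irradiated nodes. IL4, IL5 and IL13, the type 2 cytokine cluster, were all lower in group value (log2 ratios -0.12, -0.09 and -0.35), and IL10, IL19 and IL24 all higher (0.49, 0.09 and 0.22). The 95% interval of each of these ratios included 0.

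Of 20 measured genes of signalling below interleukin receptors, 5 were higher and 15 lower in group value, with a median log2 ratio of -0.15 and 0 past the threshold, beside 54.9% lower among all 780 genes. JAK1, the kinase bound to gp130 and to many interleukin receptors, had 2210 normalized counts in irradiated nodes and 3383 in non-irradiated nodes. NFKB1, a transcription factor subunit downstream of IL-1 receptors, had 597 in irradiated nodes and 847 in non-irradiated nodes. Of 15 measured partners and relatives, 4 lay above a ratio of 1 and 11 below it, at a median log2 ratio of -0.20. This list holds the 7 common gamma chain receptors left out at the start, all 7 of them lower (IL15RA turned higher with either centring), and its 8 other genes divided into 4 higher (CXCL8, OSM, LIF and SIGIRR) and 4 lower (EBI3, CSF2, CSF2RB and TNFRSF1A). Among the receptors IL2RB, the chain that receives IL-15 and IL-2, had 344 in irradiated nodes and 746 in non-irradiated nodes (log2 ratio -1.12, limma adjusted p = 0.855), the opposite side from its ligand IL15, and was the only gene of that list past the threshold when samples were taken as independent. IL15RA, which presents IL-15, had 84.0 in irradiated nodes and 85.4 in non-irradiated nodes. CXCL8, also called interleukin 8, had 325 in irradiated nodes and 200 in non-irradiated nodes. Of 13 measured helper T cell factors, 5 were higher and 8 lower (median log2 ratio -0.13), and 0 passed the threshold with either unit. The highest log2 ratio of this list was that of CCL20 (1.14), with 1925 in irradiated nodes and 874 in non-irradiated nodes. The lowest was that of GATA3, the Th2 factor (-0.67), with 64.2 in irradiated nodes and 102 in non-irradiated nodes. The others higher in group value were TBX21, IFNG, TNF and CCR6. Summed T cell markers were lower in irradiated nodes, on the same side as IL2RB, but the 10 markers were not alike. CD8A (log2 ratio -1.41) and CD8B (-1.42) were the lowest, and CD4 (0.05) and CD28 (0.03) were the 2 higher ones. The part of these markers in the value of IL2RB was not tested.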

How the data were processed

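RNA of 12 lymph node samples from 6 dogs was counted on the nCounter system and processed in nSolver by the authors. The deposited table gives, per the file headers, a group value (a signal in normalized counts) and its SD for each of 800 probes. The housekeeping log2 ratios average -2.62e-05, so the authors' values are scaled to those genes and behave as geometric means. How background was subtracted is not given in the sources used here. Another 6 columns hold the authors' own comparison (folds, p-values, limits) and were not used.

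Here each SD was turned to the log2 scale by the lognormal relation. No value of a single dog entered the fit. The variance of dog means was assumed to be 1.25 times that over samples, the most it can be with 2 samples in each of 3 dogs, on 4 assumed degrees of freedom, and was moderated with squeezeVar in limma 3.58.1 (R 4.3.3), two-sided, with Benjamini-Hochberg adjustment over 780 genes. Moderation raised the degrees of freedom to 14.8, so that the SEs and intervals of genes with a wide spread are narrower than the bound itself. P-values thus rest on the spread between these samples, on the assumed variance and on its moderation, not on a measured spread between dogs. The calculation was run on simulated data drawn from the lognormal model that the fit assumes, with the same SD in both groups. That simulation therefore cannot show how the fit behaves for genes whose spread differs between the groups. Python 3.11.15, pandas 2.3.3, scipy 1.17.1 and matplotlib 3.10.9 were used. All 55 symbols matched the RefSeq dog gene table (UU_Cfam_GSD_1.0), which served for names and gene order alone. Every member is described, with full statistics for those with an unadjusted p under 0.05 in either fit, the 3 highest and 3 lowest ratios among ligands and among receptors, and IL10RA and IL17RB, which the study names. Members and lists were chosen with earlier results of these data known. Alternatives comprised other centrings, a pseudocount of 20, a minimum level of 20, an arithmetic SD relation, unmoderated and trended variances, housekeeping genes in the fit, Benjamini-Yekutieli adjustment, independent samples and unadjusted p. Unequal variances, independent samples together with unadjusted p, and a minimum level for the relative SD were added after the data were seen.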

Additional observations from a re-analysis of the deposited data

How the results depend on the processing

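The count of genes past the threshold, 0 of 780 with the bound for dogs, became 28 with samples taken as independent, 35 with unadjusted p and 171 with both, the last chosen after seeing the data. For the 55 interleukins and receptors it stayed 0 under every alternative run except both together, which gave 5. Centring on the endogenous median moved all ratios by 0.05 and turned the log2 ratio of IL18R1 to 0.0065 and of IL6ST to 0.0333, and centring on the housekeeping median turned IL6ST to 0.0153. The receptor median of -0.01 changed sign under both centrings (0.02 and 0.03) and with the mean (0.03) and was -0.04 at a minimum level of 20, whereas the ligand median stayed between 0.04 and 0.10. A pseudocount of 20 brought the log2 ratios of IL6, IL27 and IL1RL2 to 0.57, 0.30 and -0.20, and those of IL15 and IL10RA to 0.52 and -0.39. Leaving out replicates was not run, since no single-sample value entered the fits. No paired analysis was possible because only group values and SDs were analysed. Low probe counts and 3 dogs per group limit the precision.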
